A study of Mus musculus with 8 samples.

Results

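The genes described here take up long-chain fatty acids, carry them inside the cell, join them to coenzyme A and break them down in mitochondria. They are 36 genes chosen by symbol, among 27179 entries of the count table, and 35 of them passed the filter on low counts alongside 13495 genes in all. They were measured by bulk RNA sequencing in the epithelium of antral tumors, sorted for EpCAM from 18-week-old mice, with 1 library per mouse and 4 mice per group. Both groups carried the Gp130FF mutation of the IL-6 family co-receptor, which gives rise to antral tumors, and the groups are named Gp130FF; Yap1WT and Gp130FF; Yap1KO (Yap1WT and Yap1KO below). Per the study's methods both carried Tff1:CreERT2, a transgene that places inducible Cre recombinase in foveolar cells of the gastric surface, and Yap1 fl/fl alleles whose exon 3 is removed once tamoxifen is given. From Tff1 expression the study's discussion infers that the deletion also reached parietal, chief, mucous neck, tuft, neuroendocrine and tumor epithelial cells. The labels give the age, whereas the study's text also describes the sequenced mice as somewhat older. The labels place all 8 mice 3 days after tamoxifen and list the second group's genotype as Yap1 flox/flox, whereas the methods describe the Yap1WT mice as vehicle treated. Recombination was therefore limited to cells that had switched on the Tff1 transgene, and any effect of tamoxifen itself cannot be told apart from that of the deletion if the controls received vehicle.

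Fatty acid oxidation begins outside the mitochondrion. The translocase Cd36 and the transporters of the Slc27a family bring fatty acids into the cell, small cytosolic binding proteins of the Fabp family carry them, and acyl-CoA synthetases of the Acsl family trap them as thioesters that thioesterases such as Acot1 can cleave again. Cpt1a, Slc25a20 and Cpt2 then pass the acyl group across the inner mitochondrial membrane as an acylcarnitine, after which each turn of the cycle runs through a dehydrogenase, a hydratase, a second dehydrogenase and a thiolase, and electrons leave through the electron transfer flavoprotein. Ppara and its coactivator Ppargc1a are the best known activators of these genes in liver and muscle, and the gastric surface epithelium is not known as a tissue that depends on the pathway.

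Library totals ran from 27607755 to 77483047 reads in Yap1WT and from 18229945 to 74278015 reads in Yap1KO. Levels are given below as CPM, reads scaled to the library total after edgeR's TMM factors had adjusted that total. Yap1 itself was at 77.1, 64.2, 78.0 and 72.5 CPM in the Yap1WT libraries and at 21.3, 27.6, 29.7 and 24.2 CPM in the Yap1KO libraries (log2 fold change -1.51, SE 0.126, adjusted p = 0.000208, edgeR quasi-likelihood test, Benjamini-Hochberg). The library of Yap1KO replicate 4 stood apart from the other 7 on the first principal component, at 66.8 against -17.9 to 1.34. Reads of Xist outnumbered those of Ddx3y, a sign of a female mouse, in 2 Yap1WT libraries and in 1 Yap1KO library. Markers of the sorted epithelium were abundant in both groups, among them Krt8 (2709.6 to 4122 CPM over the 8 libraries) and Krt19 (2105 to 3906 CPM), and Epcam itself was higher in Yap1KO (log2 fold change 0.76, adjusted p = 0.00188).

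Of the 35 genes tested, 1 passed the test as lower in Yap1KO, the binding protein gene Fabp5, and 1 as higher, the thioesterase gene Acot1. Over all genes tested 2.34% were called lower and 3.53% higher, so the share of calls among these genes was near the background. In total 24 of the 35 had a log2 fold change below 0, against 51.4% of all genes tested, and their median was -0.10 against -0.01 over all genes. At an unadjusted p under 0.05, 11 were lower, against 8.97% of all genes, and 3 were higher, against 11.5%. DESeq2 called 2 lower (4.22% of genes were) and 1 higher (6.27%), the added gene being Acsl5, and limma-voom called the same pair as edgeR (backgrounds of 2.85% and 4.23%).

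**Figure D1:**
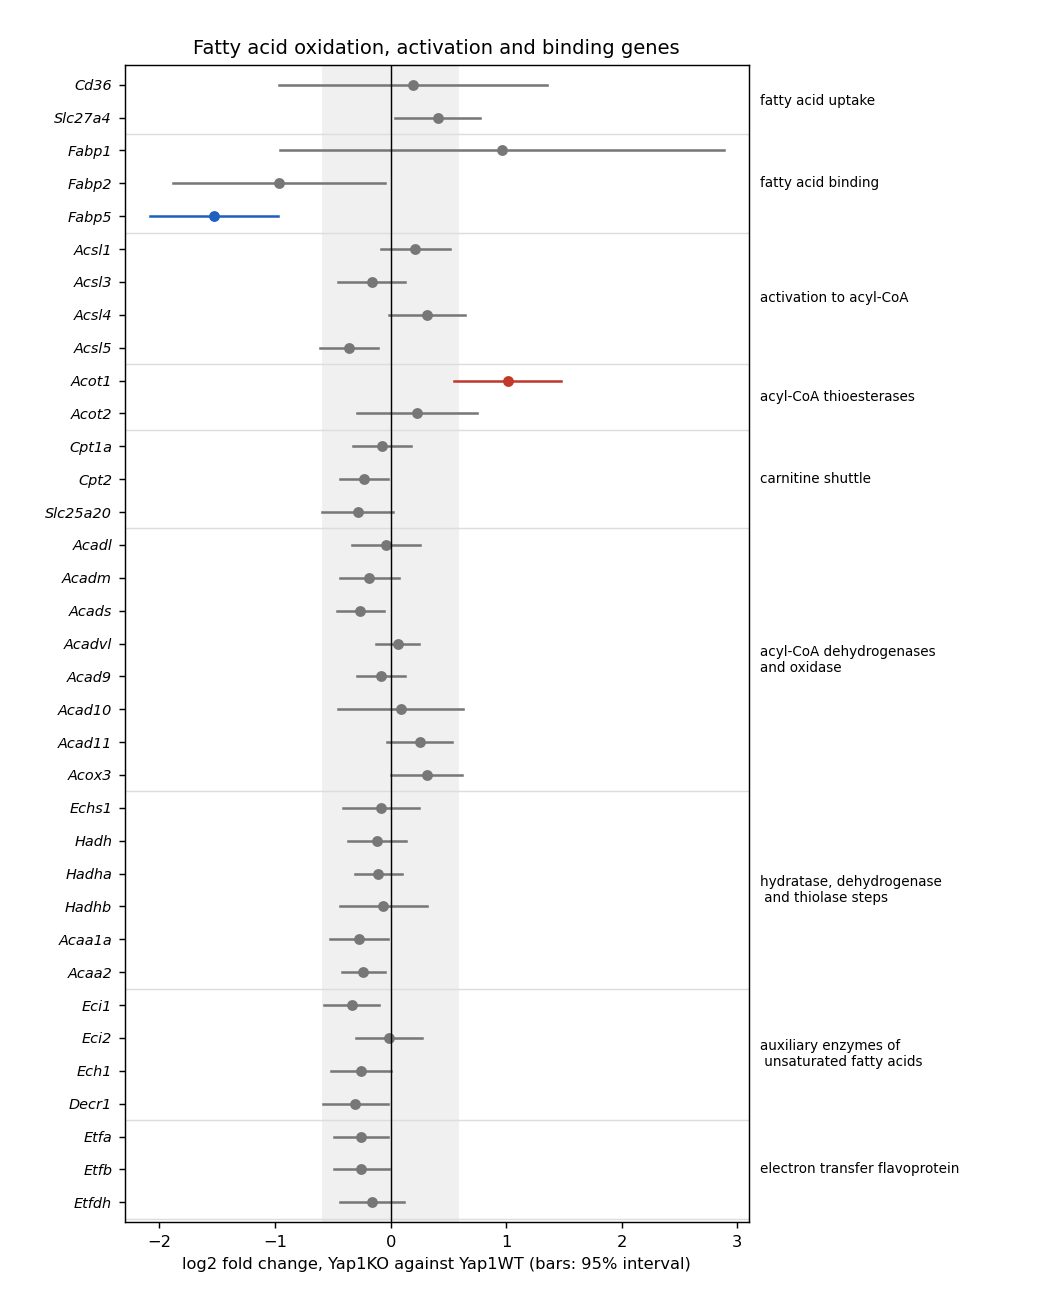
Log2 fold change of each of the 35 tested genes (horizontal axis, Yap1KO against Yap1WT, 4 mice per group) with its 95% interval from the edgeR fit, grouped by role. Blue marks the gene called lower and red the gene called higher, grey genes did not pass the test, and the shaded band spans 1.5-fold in either direction: most oxidation genes lie inside it, slightly left of 0, whereas Fabp5 lies left and Acot1 right.

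Fabp5 encodes a cytosolic lipid chaperone of skin and other epithelia (chr3:10012585-10016610, GRCm38.p6). It was counted at 21.2, 29.6, 41.0 and 30.2 CPM in the Yap1WT libraries and at 6.93, 10.1, 14.1 and 11.3 CPM in the Yap1KO libraries. Every Yap1KO library lay below every Yap1WT library, as for 6.01% of all genes tested. Fabp5 fell by 1.53 on the log2 scale (SE 0.249, adjusted p = 0.00595, edgeR), to 34.7% of the Yap1WT mean. The library numbers in the labels form a lower and a higher series of 2 mice per group, and within each the means were 25.4 against 8.5 CPM and 35.6 against 12.7 CPM. Markers of squamous epithelium, where Fabp5 is abundant, had no member called in 7 tested, their summed level ran in Yap1WT from 30.7 to 100.3 CPM and in Yap1KO from 33.0 to 92.3, led by Krt5 (6.77 to 52.3 against 3.15 to 29.9 CPM) and Krt13 (10.9 to 19.8 against 11.6 to 34.4 CPM), and Trp63, a transcription factor of that lineage, was at no more than 2.75 CPM in any library. The part of squamous cells in the Fabp5 values was not tested. Of the 80-base stretches of Fabp5 transcripts, 11% also occur in the pseudogenes Gm6166 and Gm14328, and read pairs that lie wholly in those cannot be assigned with certainty.

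The other 2 binding protein genes are markers of the absorptive intestine and went opposite ways without passing the test. Fabp2 was at 9.39, 30.6, 22.1 and 13.8 CPM in Yap1WT and at 14.5, 12.7, 6.20 and 5.41 CPM in Yap1KO, so the groups overlapped (log2 fold change -0.96, SE 0.413, adjusted p = 0.22). Fabp1 was at 2.93, 9.99, 2.49 and 2.01 CPM in Yap1WT and at 16.2, 12.7, 4.54 and 0.273 CPM in Yap1KO. The Fabp1 values in Yap1KO thus held both the highest and the lowest of the 8 libraries, and its interval was the widest among these genes (log2 fold change 0.96, 95% interval -0.96 to 2.89, adjusted p = 0.593). With a term for sex in the fit the Fabp2 difference passed the test (log2 fold change -1.19, adjusted p = 0.0367) and the Fabp1 value turned to -0.06.

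Enterocyte markers were present at low level in the same libraries. Of 7 tested, 6 had a log2 fold change above 0 and none was called, with a median of 0.997. Their summed level was 566 to 734 CPM in the Yap1WT libraries against 619 to 1030.8 in Yap1KO, most of it Vil1 (388 to 432 and 418 to 554 CPM) and Alpi (23.4 to 181 and 42.7 to 224 CPM). Cdh17 was at 0.304 to 29.6 CPM against 6.72 to 55.1 CPM and Mttp at 3.00 to 12.8 against 3.82 to 37.2 CPM, and of the genes that were not tested Apoa4 reached 3.33 CPM in Yap1WT and 13.2 in Yap1KO, Sis 0.362 and 11.8 CPM, and Rbp2 and Fabp6 at most 0.253 CPM in any library. Apob, the 1 tested marker below 0, was at 62.3 to 142 against 44.0 to 105 CPM (-0.29). The library highest in Fabp1, Yap1KO replicate 1, also had the highest summed enterocyte level. The library lowest in Fabp1, Yap1KO replicate 4, had a sum of 656 CPM, inside the Yap1WT range, but Vil1 made up 534 CPM of it. In that library Apoa4 and Sis were at 0 CPM and Apoa1 at 3.38 CPM, the lowest Apoa1 value of any library. Alpi (42.7 CPM) and Cdx2 (4.86 CPM) were not at their lowest there. The part of enterocyte-like cells in the Fabp1 and Fabp2 values was not tested, and in bulk libraries fewer cells of a type and less RNA per cell cannot be told apart.

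Fatty acid uptake genes did not pass the test. Cd36, the fatty acid translocase, was at 5.75, 12.2, 8.61 and 31.1 CPM in Yap1WT and at 7.28, 12.5, 25.6 and 20.3 CPM in Yap1KO. The range inside the Yap1WT group was as wide as that of all 8 libraries (log2 fold change 0.19, 95% interval -0.97 to 1.36). Cd36 is abundant in capillary endothelium. All 10 endothelial markers had a log2 fold change above 0, with a median of 1.24 and 1 called (Vwf, 1.66, adjusted p = 0.036), while DESeq2 called 4 higher, limma-voom 6, and 8 were higher at an unadjusted p under 0.05, and their summed level was 166 to 577 CPM in the Yap1WT libraries against 529.6 to 1070.3 in Yap1KO, the most abundant being Plvap and Pecam1. Yap1WT replicate 4, the highest of its group in Cd36, was also the highest of its group in that sum. In Yap1KO, replicate 3 was the highest in Cd36 but replicate 4 the highest in the sum (729 and 1070 CPM). The part of endothelial RNA in the Cd36 values was not tested.

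Slc27a4, a transporter with acyl-CoA synthetase activity found in absorptive epithelia, was at 51.5, 43.0, 48.3 and 59.7 CPM in Yap1WT and at 76.9, 54.6, 54.0 and 83.7 CPM in Yap1KO. The groups overlapped in 1 Yap1WT and 2 Yap1KO libraries (log2 fold change 0.41, SE 0.166, adjusted p = 0.192). Slc27a2, the liver and kidney form, reached 0.722 CPM at most and was not tested. Of the adipocyte markers, Adipoq, Plin1 and Lep were at 1.54 CPM or less in every library, and no marker of 3 tested was called. Cidec was at 6.73 to 10.7 against 6.32 to 8.93 CPM and Cfd at 0.451 to 11.5 against 0 to 4.74 CPM. Fabp4, which capillary endothelium also expresses, ranged over 11.3 to 54.2 CPM in Yap1WT, against 13.0 to 62.4 in Yap1KO. Cfd, Adipoq and Plin1 were highest in Yap1WT replicate 4 and, within Yap1KO, in replicate 3. These libraries were also the highest of their groups in Cd36. Lep, Cidec, Fabp4 and Retn did not peak in both. The part of adipocyte RNA in the Cd36 values was not tested.

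**Figure D2:**
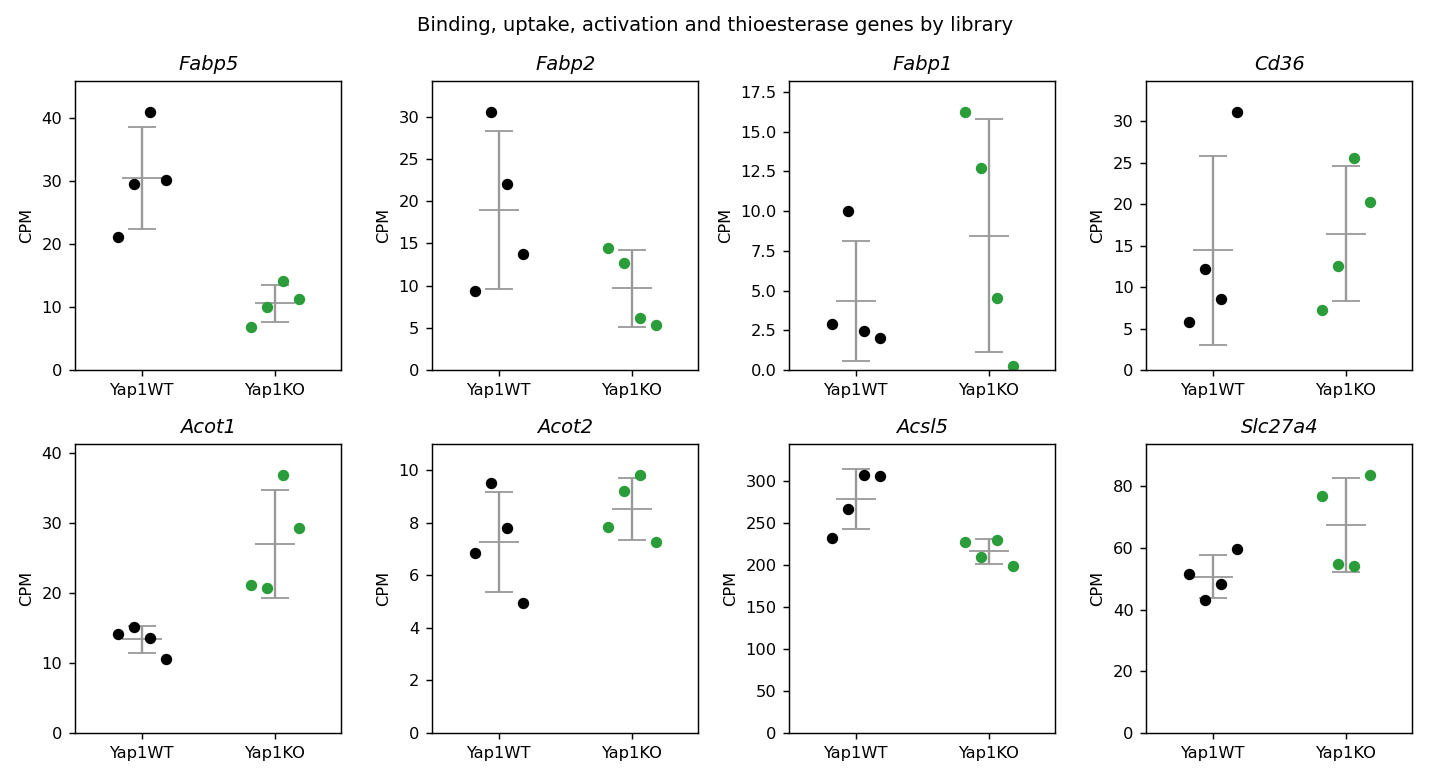
Level in CPM of 8 genes in each library, Yap1WT in black and Yap1KO in green, with 1 point per mouse and the bar and whiskers giving the mean and SD of 4 mice, each axis starting at 0. The groups are fully separated for Fabp5, Acot1 and Acsl5, while Fabp1 and Cd36 spread widely within a group.

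Acyl-CoA synthetases split by family member. Acsl5, the form of intestinal epithelium, was the most abundant at 233, 267, 308 and 305.5 CPM in Yap1WT and 228, 209, 230 and 199 CPM in Yap1KO. All 4 Yap1KO values lay below all Yap1WT values, but the difference missed the threshold (log2 fold change -0.36, SE 0.114, adjusted p = 0.102), and DESeq2 gave an adjusted p of 0.0316. The arachidonate-preferring Acsl4 (44.7 to 54.7 against 45.3 to 76.0 CPM) and the liver and adipose form Acsl1 (38.9 to 48.2 against 40.1 to 57.9 CPM) had positive values of 0.31 and 0.21, and the endoplasmic reticulum form Acsl3 (170 to 214 against 135 to 193 CPM) a value of -0.16, none past the test.

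Acot1 and Acot2 are neighbouring duplicates on chromosome 12, cytosolic and mitochondrial thioesterases that release free fatty acid from acyl-CoA. Their starts lie 21641 bases apart on the same strand. The longest open reading frames of their reference transcripts were identical in 85.5% of aligned columns, against 49.8 to 50.7% among Fabp1, Fabp2 and Fabp5. Of the 80-base stretches of Acot1 transcripts, 18.8% also occurred in Acot2 transcripts, and 25.2% in those of any other gene, among them Acot3 and Acot5. Read pairs that lie wholly in such stretches cannot be assigned to 1 gene with certainty. The 250 bases before the starts of Acot1 and Acot2, by contrast, shared 45.2% of aligned columns, no more than Acot1 shared with the unrelated Hadha (46.2%). They are shown because Acot1 was called and Acot2 was not (RefSeq, GRCm38.p6, plus strand, Acot1 at chr12:84009252-84009501 and Acot2 at chr12:83987611-83987860). Whether the 2 annotated starts correspond to each other in the duplicates was not tested. Capitals mark the CCAAT box (letters CCAAT) and the GC box (letters GGGCGG), on either strand.
Acot1: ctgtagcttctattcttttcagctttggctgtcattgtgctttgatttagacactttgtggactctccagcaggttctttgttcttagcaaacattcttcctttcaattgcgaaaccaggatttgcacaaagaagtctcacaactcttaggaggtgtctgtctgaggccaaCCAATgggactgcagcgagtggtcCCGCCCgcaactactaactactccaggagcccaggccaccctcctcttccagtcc
Acot2: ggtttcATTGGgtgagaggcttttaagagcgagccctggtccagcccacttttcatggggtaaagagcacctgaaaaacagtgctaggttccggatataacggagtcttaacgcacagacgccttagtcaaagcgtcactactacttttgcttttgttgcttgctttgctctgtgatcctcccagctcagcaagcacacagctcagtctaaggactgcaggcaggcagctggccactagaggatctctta
Both stretches hold a CCAAT box, in Acot2 on the reverse strand and far from the start, and a GC box was found before Acot1 only.

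Acot1 was at 14.2, 15.1, 13.6 and 10.6 CPM in the Yap1WT libraries and at 21.1, 20.7, 36.9 and 29.3 CPM in the Yap1KO libraries. Every Yap1KO library exceeded every Yap1WT library, as for 7.19% of all genes tested, and Acot1 rose by 1.01 on the log2 scale (SE 0.208, adjusted p = 0.0192, edgeR). The call was lost without Yap1WT replicate 3 (adjusted p = 0.058) and without Yap1KO replicate 4 (adjusted p = 0.0564), with log2 fold changes of 1.02 and 0.97. In the lower label series the means were 14.6 and 20.9 CPM, and in the higher series 12.1 and 33.1 CPM.

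Acot2 was at 6.86, 9.50, 7.80 and 4.94 CPM in Yap1WT and at 7.84, 9.19, 9.82 and 7.26 CPM in Yap1KO, with overlapping groups (log2 fold change 0.23, 95% interval -0.29 to 0.75). On the length-scaled scale deposited by the authors (log2 RPKM), Acot1 exceeded Acot2 in every library, by 1.53, 1.18, 1.21 and 1.59 in Yap1WT and by 1.95, 1.75, 2.44 and 2.52 in Yap1KO. The difference between the neighbours was thus larger in Yap1KO by 0.79 (exact permutation test, two-sided, p = 0.0286, the smallest that 4 against 4 libraries allow, and 0.0571 after adjustment over the 2 gene pairs compared in this way).

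The 24 oxidation genes, from the carnitine shuttle to the electron transfer flavoprotein, gave no call in either direction, by edgeR, DESeq2 or limma-voom. At an unadjusted p under 0.05 edgeR gave 8 lower and 1 higher, against 8.97% and 11.5% of all genes. In 20 of 24 the log2 fold change was below 0, against 51.4% of all genes, and the values ran from -0.34 (Eci1) to 0.31 (Acox3) with a median of -0.14. Over all 21 settings the number below 0 was 17 to 21 and the median -0.19 to -0.12. The 95% interval lay within 1.5-fold of no change for 20 of the 24, against 45.8% of all genes tested, so for most oxidation genes a change beyond 1.5-fold lay outside the interval.

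Summed over the 24 genes, the level was 2638, 2685, 2740 and 2583 CPM in Yap1WT and 2358, 2528, 2427 and 2433 CPM in Yap1KO. On this TMM-adjusted scale the 2 groups did not overlap, and the Yap1KO mean was 91.5% of the Yap1WT mean. The sum was not computed under other scalings. The sum is given as a description, with no test.

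**Figure D3:**
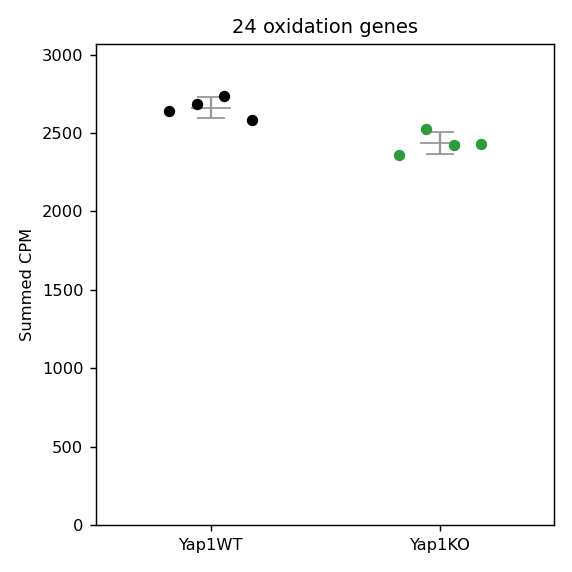
Summed CPM of the 24 oxidation genes in each library, Yap1WT in black and Yap1KO in green, with 1 point per mouse, the mean and SD of 4 mice, and an axis starting at 0. On this TMM-adjusted scale the groups do not overlap, and the Yap1KO mean is 91.5% of the Yap1WT mean.

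In the carnitine shuttle, the outer membrane carnitine acyltransferase Cpt1a, usually the rate-setting entry step, was at 238, 201, 258 and 241 CPM in Yap1WT and at 250.3, 195, 228 and 217 CPM in Yap1KO. The groups overlapped fully (log2 fold change -0.07, 95% interval -0.32 to 0.18). The inner membrane partner Cpt2 was at 93.3, 90.6, 102 and 98.4 CPM against 86.7, 84.0, 84.6 and 72.1 CPM. Its groups did not overlap, yet the difference was small (log2 fold change -0.23, SE 0.0922, adjusted p = 0.187), and the carnitine-acylcarnitine translocase Slc25a20 had -0.28 (adjusted p = 0.289) with overlapping groups.

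The 7 acyl-CoA dehydrogenases and the peroxisomal oxidase gene Acox3 were divided, 4 below 0 and 4 above, with a median of 0.01. Long-chain Acadl was the most abundant of them per length in Yap1WT, at a mean of 7.0 log2 RPKM, and its difference was -0.04 (95% interval -0.33 to 0.25). Very-long-chain Acadvl was the steadiest, at 145 to 161 CPM in the Yap1WT libraries against 154 to 167 in Yap1KO (0.06, 95% interval -0.13 to 0.24). Medium-chain Acadm and short-chain Acads were at 0.18 and 0.26 below 0 on the log2 scale, the latter with an adjusted p of 0.134. Acox3 (34.7 to 45.7 against 39.0 to 56.1 CPM) and Acad11 (43.8 to 57.1 against 51.0 to 69.6 CPM) lay above 0, at 0.31 and 0.25, and neither passed the test. Acad9, better known as an assembly factor of respiratory complex I, gave -0.08 and the low Acad10 0.09.

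All 6 genes of the hydration, second dehydrogenation and thiolysis steps were below 0, by 0.06 to 0.27 on the log2 scale, and none was called. The lowest were the peroxisomal thiolase Acaa1a (130 to 148 against 95 to 134 CPM, -0.27, adjusted p = 0.198) and the mitochondrial thiolase Acaa2 (125 to 137 against 105 to 117 CPM, -0.24, adjusted p = 0.139), whose groups did not overlap. Acaa1a shared 19.6% of its 80-base stretches with its duplicate Acaa1b, so counts between those may be exchanged. The hydratase Echs1 and the dehydrogenase Hadh had -0.08 and -0.12.

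Hadha and Hadhb encode the 2 subunits of the mitochondrial trifunctional protein and are transcribed in opposite directions from starts 272 bases apart on chromosome 5. The stretch before Hadha is shown because the pair shares it as its promoter region (RefSeq, GRCm38.p6, minus strand, chr5:30154981-30155230, capitals marking the GC box).
Hadha: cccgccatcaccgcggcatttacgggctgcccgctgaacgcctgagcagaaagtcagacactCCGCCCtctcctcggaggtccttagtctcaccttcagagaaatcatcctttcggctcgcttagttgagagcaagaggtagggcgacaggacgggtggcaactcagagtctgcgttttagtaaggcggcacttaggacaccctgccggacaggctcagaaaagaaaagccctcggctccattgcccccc
Hadha was at 269, 261, 292 and 279 CPM in Yap1WT and 253, 232, 264 and 275 CPM in Yap1KO, and Hadhb at 26, 27.7, 25.7 and 26.6 CPM against 20.1, 22.4, 23.9 and 35.3 CPM. Neither passed the test (-0.11 and -0.06). Per length the 2 subunits differed in every library, by 2.29 to 2.46 log2 RPKM in Yap1WT and by 1.96 to 2.62 in Yap1KO, and the exact permutation test of that difference between groups gave p = 0.943. Of the 80-base stretches of Hadhb transcripts, 50.0% also occur in the pseudogene Gm13910, whereas 0% of those of Hadha occur in another gene. The part of such shared reads in the gap was not tested.

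The auxiliary enzymes that let unsaturated fatty acids pass through the cycle were all below 0. The isomerase Eci1 was at 39.8, 37.4, 48.2 and 41.4 CPM in Yap1WT and at 32.2, 31.4, 34.7 and 33.9 CPM in Yap1KO, without overlap, and had the lowest value of the oxidation genes (-0.34, SE 0.107, adjusted p = 0.103). The reductase Decr1 had -0.31 (adjusted p = 0.198), Ech1 -0.25 (adjusted p = 0.25) and the second isomerase Eci2 -0.01 (adjusted p = 0.974). The electron transfer flavoprotein subunits Etfa and Etfb and their dehydrogenase Etfdh had -0.25, -0.25 and -0.16, with Etfb the most abundant of all these genes per length (7.19 log2 RPKM in Yap1WT). For Etfb 51.5% of 80-base stretches were shared with an overlapping locus, Gm45233.

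**Figure D4:**
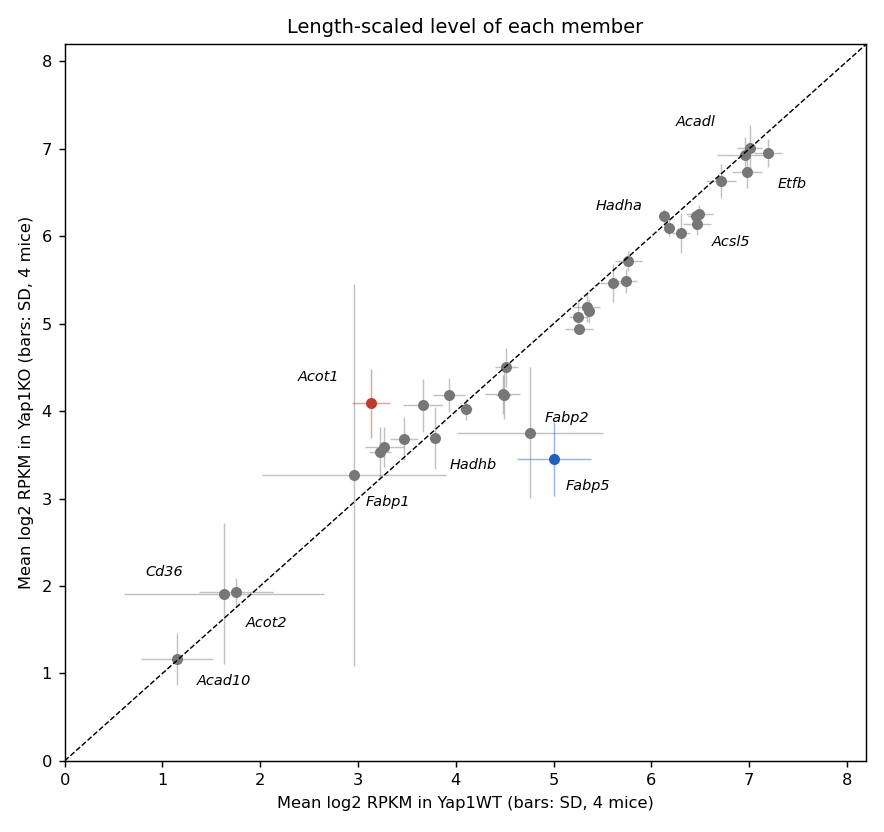
Mean length-scaled level of the 35 tested genes in Yap1WT (horizontal axis) and Yap1KO (vertical axis) as log2 RPKM, with the SD of 4 mice as bars and equality as a dashed line. The oxidation genes lie close to the line over a wide range of levels, down to Acad10 at 1.15 in Yap1WT, the called genes Fabp5 (blue) and Acot1 (red) lie below and above it, and Fabp1, Fabp2 and Cd36 have the longest bars.

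Ordered by level in Yap1WT, Etfb came first (7.19 log2 RPKM, SD 0.14, n = 4), followed by Acadl (7.0, SD 0.13), Ech1 (6.98, SD 0.153) and Echs1 (6.96, SD 0.292), of which the last 3 differed from one another by less than their spread between mice, while Acad10 (1.15), Cd36 (1.63) and Acot2 (1.75) came last. The groups of 5 of the 35 genes did not overlap with Yap1KO lower (6.01% of all genes), namely Fabp5, Acsl5, Cpt2, Acaa2 and Eci1, and those of 1, Acot1, with Yap1KO higher (7.19% of all genes).

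Motifs were searched in the 300 bases around the start (250 before and 50 after) of the 32 genes with a RefSeq window, on both strands. The 4 genes without a window, Fabp5, Acad9, Decr1 and Acaa2, were not searched. The direct repeat bound by the PPAR and RXR pair (AGGTCA followed by any 1 base and AGGTCA again) was found in 0 of them, and in 0.0396% of all 32851 windows. The single site AGGTCA was found before 7 (21.9%, all windows 16.3%), namely Acadm, Acadvl, Cd36, Cpt1a, Echs1, Fabp1 and Slc27a2. The longer estrogen-related receptor motif (TCAAGGTCA), which contains that site, was in 0 (0.423% of all). The direct repeat and this longer motif are so rare over all windows that 0 among 32 genes cannot tell these genes from others. Sites that depart from the given letters were not searched. The motif of the TEAD factors, the DNA-binding partners of Yap1 (GGAATG), was in 5 (15.6%, all windows 14.7%), namely Acox3, Acsl1, Cpt1a, Etfb and Slc25a20, and in neither Acot1 nor Acot2. The nuclear respiratory factor 1 motif was in 3 (9.38%, all windows 4.6%). GC boxes were in 24 (75%, all windows 35.7%), CCAAT boxes in 15 (46.9%, all windows 37.4%) and a TATA box (TATAAA) in 1, Fabp1 (all windows 13.6%). These are letters in windows, and no binding was measured.

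Beyond the 36, 99 further genes of fatty acid and ketone metabolism were followed, 85 of them tested. Of these 5 were called lower (Abcd3, Oxct1, Slc16a1, Klf4 and Klf5), against 2.34% of all genes, and 2 higher (Acsbg1 and Angptl4), against 3.53%. Their median log2 fold change was -0.10, and 57 were below 0, against 51.4% of all genes. None of the 5 lower calls remained without Yap1WT replicate 3 or without Yap1KO replicate 4, and no other further gene was then called lower. The lower calls were 2 of 4 genes of ketone body metabolism, 1 of 16 peroxisomal genes and 2 of 23 regulators.

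Ketone bodies are made from acetyl-CoA in mitochondria, chiefly in liver, and burned in other tissues. Oxct1, the transferase that starts ketone use, was at 121, 102, 133 and 121 CPM in Yap1WT against 75.8, 66.4, 96.9 and 71.1 CPM in Yap1KO, and fell by 0.62 on the log2 scale (SE 0.134, adjusted p = 0.0254). Slc16a1, the monocarboxylate transporter that also carries lactate, was at 164, 165, 241 and 190 CPM against 128, 123, 138 and 137 CPM and fell by 0.53 (SE 0.131, adjusted p = 0.0433). In neither did the groups overlap. The dehydrogenases Bdh1 and Bdh2 had -0.22 (adjusted p = 0.406) and 0.56 (adjusted p = 0.37). Leaving out single libraries in turn, Slc16a1 lost its call in 6 of 8 fits and Oxct1 in 5, with adjusted p of at most 0.102, while the fold changes stayed between -0.74 and -0.39.

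Acsbg1, an acyl-CoA synthetase of the bubblegum family known from brain and testis, was at 3.24, 3.77, 2.53 and 3.58 CPM in Yap1WT and 9.41, 7.92, 9.61 and 13.2 CPM in Yap1KO. It rose by 1.61 on the log2 scale (SE 0.239, adjusted p = 0.00359) and kept its call in every fit that left out 1 library. Angptl4, a secreted inhibitor of lipoprotein lipase and a standard PPAR target, was at 7.84, 11.5, 2.98 and 11.6 CPM against 22.5, 26.2, 18.7 and 38.3 CPM and rose by 1.64 (SE 0.39, adjusted p = 0.0366), a call lost in 4 of 8 such fits. Angptl4 is also expressed by endothelial cells, whose summed markers were given above, and their part in its value was not tested.

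The peroxisomal membrane transporter Abcd3 fell by 0.46 (388 to 523 against 310 to 334 CPM, adjusted p = 0.036). The epithelial transcription factors Klf4 and Klf5 fell by 0.64 (511 to 669 against 318 to 416 CPM, adjusted p = 0.0181) and by 0.39 (246 to 278 against 180 to 222 CPM, adjusted p = 0.0408). Abcd3 and Klf5 each lost the call in 7 of 8 fits without 1 library, and Klf4 in those without Yap1WT replicate 3 and without Yap1KO replicate 4.

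The regulators best known for the pathway did not pass the test. Ppara was low (0.322 to 4.19 CPM in Yap1WT, against 1.65 to 5.31 in Yap1KO, log2 fold change 0.52, adjusted p = 0.712), and Ppard was much higher at 81.9 to 104 and 76.6 to 89.8 CPM (-0.15, adjusted p = 0.432). Pparg (104 to 161 against 81.1 to 106 CPM) had -0.44 (adjusted p = 0.116), and Ppargc1a (7.62 to 12.3 against 12.2 to 19.5 CPM) 0.62 (adjusted p = 0.136). Among other usual PPAR targets, Pdk4, the kinase that spares glucose, had 8.63 to 11 against 7.07 to 10.6 CPM (-0.07).

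**Figure D5:**
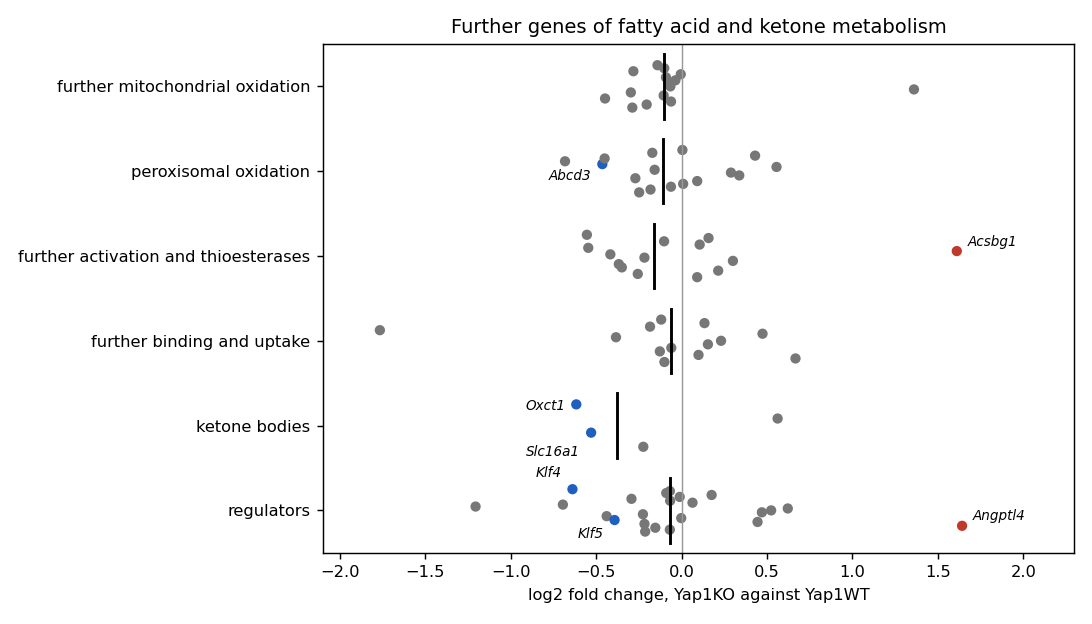
Log2 fold change (horizontal axis, Yap1KO against Yap1WT) of the 85 tested further genes by list, 1 point per gene, with black ticks at the list medians. Blue points were called lower and red points higher and are named, and most of the other genes lie close to 0, with a median of -0.10 over all 85.

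Markers of gastric and other lineages moved in the same libraries. Of 10 genes listed as markers of foveolar cells, which carry the Cre transgene, 8 lay below 0 and 2 above, with a median of -0.81. Capn8 (-1.76), Sult1c2 (-1.63) and Anxa10 (-0.98) were called lower and Gkn3 (0.68) higher. Tff2 (33509 to 56510.3 against 53577 to 76095 CPM, 0.50) was the other gene above 0 and did not pass the test. The abundant Gkn1 (9910.0 to 20908 against 7297 to 12588 CPM, -0.62), Gkn2 (-0.95) and Tff1 (-0.53) lay below 0 without passing it. The summed level of the list was 75538 to 122788 CPM in the Yap1WT libraries against 79633 to 107155 in Yap1KO, and Tff2 was its most abundant gene. Which gastric cells made the Tff2 and Gkn3 transcripts was not tested. The list for parietal cells, which are rich in mitochondria, gave no call, with 3 of 4 tested below 0 and a median of -1.02. Ckmt1 was at 556 to 683 against 595 to 637 CPM and Atp4a at 23.5 to 150 against 5.80 to 39.3 CPM (-2.02). Atp4b was at 8.43 to 64.8 against 0.887 to 11.5 CPM (-2.61, adjusted p = 0.0863, edgeR). Cblif, at 50.2 to 125 against 69.8 to 178 CPM, was the 1 above 0, and which cells made its transcripts was not tested. Chief cell markers gave no call either (median 0.23 of 5), with Pgc at 201 to 3335 against 412 to 1729 CPM and Chia1 at 1.04 to 30.3 against 1.53 to 149 CPM. Leukocyte markers gave 1 call of 4 tested (Cd68, 1.06) and 3 of 4 below 0, among them the abundant Cd14 (-0.31) and the pan-leukocyte gene Ptprc (5.62 to 12.4 against 1.19 to 4.47 CPM, -1.17, adjusted p = 0.151), with Cd3e at 0.0947 CPM or less, and fibroblast and smooth muscle markers none of 9, with a median of 0.82 and a sum of 109 to 785 against 329 to 1063 CPM, led by Col3a1 and Col1a1. Of liver and exocrine pancreas genes Cela1, which gastric epithelium also expresses, was called higher (0.79), whereas Prss2 and Cpa1 were at 0 in all Yap1WT libraries and reached 95.8 and 31.5 CPM in Yap1KO replicate 2, which also held Ctrb1 at 262 CPM. The part of any of these lineages in the values of the fatty acid genes was not tested.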

How the data were processed

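RNA of EpCAM-positive tumor cells from 4 Yap1WT and 4 Yap1KO mice was made into TruSeq libraries, which do not mark strand. Per the study's methods the authors aligned 80-base paired reads with Subread (GRCm38/mm10) and assigned them to RefSeq genes by featureCounts. The deposited table holds read counts. The deposited log2 values are log2 RPKM, made by the authors with limma's voom and quantile normalization and scaled to gene length. Tool versions are not given in the sources used here. Of the count table, 8 columns matched samples and 6 were not used. Entries without a symbol (0.552 to 0.789% of reads) and 762 pseudogene entries absent from the log2 values were left out of the tests.

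Genes above 0.5 CPM in at least 6 libraries were tested, with library totals not adjusted by TMM in that filter. The test was edgeR 4.0.16 (TMM, quasi-likelihood, no covariate, R 4.3.3). The p-values were adjusted over all 13495 by Benjamini-Hochberg with a threshold of 0.05. Fold changes are Yap1KO against Yap1WT. Depth limits low genes, and the common biological coefficient of variation was 0.283. On simulated counts of this comparison (13271 genes in that step) the fit recovered 19.4% of 1.5-fold, 52.2% of 2-fold and 80.3% of 4-fold changes, with 4 false calls. The p-values measure spread between mice. No 2 libraries of a group agreed within sampling noise (lowest chi-square per degree of freedom 64.7).

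Members and lists were chosen with earlier results of these data known. Some genes of the further lists are not reported here. Text names all 36 members, up to 6 called genes of each further list by smallest p together with Ppara, Ppard, Pparg and Ppargc1a, up to 3 called genes of each marker list with its 2 most abundant by mean over all libraries, and Yap1. Other genes named were picked after their values were seen. DESeq2 1.42.0, limma 3.58.1, other scalings, filters, a replicate block, a term for sex and single-library omissions were alternatives. Gene positions and upstream sequences came from RefSeq (GRCm38.p6), transcripts from GENCODE vM21, and exact tests from scipy 1.17.1.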

Additional observations from a re-analysis of the deposited data

Results flagged for a closer look

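A library was set apart where its gap to the nearest of the other 3 libraries of its group exceeded Dixon's 95% critical value for the share of the group's range. Of 70 gene groups (35 genes in 2 groups) 5 passed, against about 5% by chance. Fabp1 stood at 9.99 CPM in Yap1WT replicate 2, with 2.01 to 2.93 CPM in the other Yap1WT libraries. Acox3 stood at 45.7 CPM in Yap1WT replicate 1, with 34.7 to 36.5 CPM in the others. In Yap1KO replicate 2, Echs1 stood at 213 CPM (163 to 168 CPM in the others), Ech1 at 143 CPM (112 to 113 CPM in the others) and Acadvl at 167 CPM (154 to 156 CPM in the others). That library also held the exocrine pancreas genes Ctrb1 at 262 CPM and Prss2 at 95.8 CPM, which were at 0.491 CPM or less in the other 7, and their part in these values was not tested.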

How the results depend on the processing

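Over 20 alternatives, 805 values of single genes kept direction and side of the threshold, 35 lost the call, 3 gained one and 17 turned direction. Fabp5 and Acsbg1 were called in all. DESeq2 and a term for sex each called 2 of the 36 genes lower, adding Acsl5 and Fabp2. Correlations of same-numbered deviations were 0.036, 0.347, 0.0517 and 0.148, against highest values with another number of 0.199, 0.0989, 0.0713 and 0.193. Only replicate 2 was thus closest to its own number, and whether the numbers pair the mice remained unsettled. A replicate block called 2 of the 36 higher, adding Slc27a4 (adjusted p = 0.0437), and 8 of the further genes lower, against 5. Over all genes, DESeq2 called 569 lower and 845 higher and the replicate block 552 and 755, against 316 and 476. Leaving out single libraries gave 158 to 298 lower and 247 to 485 higher over all genes, 0 to 1 of the 36 higher, and 0 to 3 lower and 1 to 2 higher of the further genes. No further gene was called lower without Yap1WT replicate 3 or without Yap1KO replicate 4. The cause was not tested.

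Small values turned direction. Fabp1 was -0.057 with a term for sex. Under limma-voom Acadl was 0.00446, Acad10 -0.19 and Eci2 0.00636, and Acadl was 0.00380 under limma on the deposited log2 values. Without single libraries Cd36 ran from -0.11 to 0.89, Acadl from -0.15 to 0.0284, Acad10 from -0.0256 to 0.32, Echs1 from -0.18 to 0.0642, Hadhb from -0.26 to 0.0354 and Eci2 from -0.0858 to 0.065. Klf5 lost its call without a filter and with a term for sex.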
